A study of Mus musculus with 12 samples.

Results

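The genes described here are the mouse genes whose symbol is Zfp followed by digits, a naming series given to zinc-finger proteins, and their transcripts were followed in unfertilized oocytes of females from 2 diets. A symbol was kept where its mean over all 12 libraries reached 2 CPM, where CPM is a gene's count divided by the library's sum of gene counts and scaled to 1000000, and Zfp57 and Zfp36 were left out. The rule kept 180 of 331 such symbols, in a table of 24062 genes, and 25 of the others had no count in any library. The genes were thus chosen by their mean level over both diets, which is not reported as a result. Just inside the limit were Zfp800, Zfp825 and Zfp384, with means of 2.01, 2.09 and 2.12 CPM. Just outside it were Zfp521, Zfp263 and Zfp948, with means of 1.89, 1.92 and 1.98 CPM. Of the 180 genes, 162 averaged at least 2 CPM in both diets, while 11 were below that mean in HFD and 7 in CD, so that these 18 met the limit only through the other diet.

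The HFD group held 6 libraries from females fed a high-fat, high-calorie feed, and the CD group held 6 libraries from females fed the control feed, in both cases for 9 weeks before mating with vasectomized males. A library holds the RNA of 4 pooled oocytes, collected at day 0.5 after mating, and every female ate the control feed during mating. The labels give both feeds the same product code, with the HFD described as modified, so the composition of the control feed is uncertain. They list 6 females per diet without tying a female to a pool, and they state neither strain nor age, so p-values reflect only how far these pools differ, and some of that may be technical.

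Gene counts summed to between 8409491 and 13793598 in the HFD libraries and to between 8556396 and 10477316 in the CD libraries. Every count was even in HFD 1, HFD 2, HFD 4 and HFD 6, while HFD 3, HFD 5 and all 6 CD libraries held odd counts too. Libraries with even counts alone thus occurred only in HFD, and the counts were used as deposited. All 14 oocyte identity genes checked were present, while 16 of 20 cumulus and granulosa markers averaged under 1 CPM and Amh, Ptx3, Pgr and Areg had no count. The other 4 were Serpine2, Cyp19a1, Nr5a2 and Cyp11a1, with means of 668, 34.0, 9.86 and 4.83 CPM, and the whole list summed to 118 to 1813 CPM in HFD and to 133 to 1352 CPM in CD. Of 10 oviduct epithelium markers, 6 averaged at least 1 CPM and none was without a count, and the list summed to 59.3 to 567 CPM in HFD and to 89.7 to 265 CPM in CD. The sum of 567 CPM was that of HFD 3, where Tubb4b alone stood at 501 CPM. Of 10 blood and immune markers, Cd68 alone averaged at least 1 CPM and 7 had no count. In 4 libraries Mos, the kinase that holds the egg in its arrest before fertilization, was nearly absent. It stood at 9.37 CPM in HFD 1, 4.04 in HFD 2, 3.83 in CD 2 and 3.97 in CD 4, against 146 to 1697 CPM in HFD 3 to HFD 6 and 338 to 479 CPM in CD 1, CD 3, CD 5 and CD 6. The summed level of the 14 oocyte genes in these 4 libraries was between 5192 and 7079 CPM, against 22335 to 46738 CPM in the other 8. HFD 3 and CD 3 also stood apart, holding the highest level of 22.6% and 20.2% of all genes tested. Several of the results that rest on these libraries are given with and without them, and the others with them only.

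A C2H2 zinc finger is a short loop of amino acids held around a zinc ion by a pair of cysteines and a pair of histidines, and rows of such fingers read DNA. Many Zfp proteins also carry a KRAB domain, which binds the corepressor KAP1, the product of Trim28, and through it recruits the histone methyltransferase Setdb1, HP1 proteins and deacetylases. In oocytes and early embryos this system is known for silencing retrotransposons and for keeping methylation at imprinted genes. Other Zfp proteins lack KRAB and act in transcription, RNA processing or translation, so the symbol names a fold and not 1 function.

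All but 1 of the 180 genes were annotated as protein coding, the exception being the pseudogene Zfp939. In the translated coding sequences, 97 held a match to the KRAB box and 82 did not. The KRAB genes had a median of 12 finger matches and the others a median of 6, and Zfp236 had the most, with 30. Below the level limit the make-up was alike, with a KRAB match in 77 of 148 Zfp genes that have a coding sequence. Zfp330, Zfp703, Zfp750, Zfp839, Zfp935 and Zfp957 had no match to the finger pattern. Most of the genes were weakly expressed: the median of the mean levels was 10.9 CPM, 88 genes averaged under 10 CPM and 11 averaged at least 100 CPM. A count was present in every library for 166 genes.

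Per kilobase of exon, Zfp706 was the most abundant, at 258 CPM per kb over all 12 libraries. Zfp706, a small protein with a single finger match that mouse embryonic stem cells need to leave self-renewal, had a lowest, median and highest level of 518, 1474 and 2504 CPM in HFD and of 604, 1010.0 and 1753 CPM in CD. The diets overlapped widely, and the lowest library was HFD 3 and the highest HFD 1. The next were Zfp655 at 128 CPM per kb, Zfp873 at 94.9, Zfp957 at 85.5, Zfp735 at 60.7, Zfp664 at 58.0, Zfp68 at 57.5 and Zfp296 at 56.7. Of these, Zfp873, Zfp735 and Zfp68 have a KRAB match.

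Summed over the 180 genes, the level was lower on average in HFD, with a wide spread in CD. The lowest, median and highest sums were 5044, 6575 and 7437 CPM in the HFD libraries and 5394, 8365 and 10240.2 CPM in the CD libraries. The mean was 6447 ± 917 CPM in HFD and 7948 ± 1927 CPM in CD (SD, n = 6 each), a difference of -1501 CPM, which is below the SD of the CD pools. This comparison with the SD turned on Zfp706, whose median was higher in HFD. Without Zfp706 the HFD libraries averaged 4981 ± 482 CPM, whereas the CD libraries averaged 6893 ± 1788 CPM. The CD mean was then higher by more than the SD of the CD pools. With all 180 genes, CD 2, CD 3, CD 4 and CD 5 lay above every HFD library, while CD 1 and CD 6 lay within the HFD range. The genes took 0.529% to 0.749% of gene counts in HFD and 0.608% to 0.964% in CD. Over all 180 genes, the difference was -1297 CPM with HFD 1, HFD 2, CD 2 and CD 4 left out. It was -924 CPM with HFD 3 and CD 3 left out together.

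Within CD the spread between pools was larger among the KRAB genes. Their summed level was 1728, 1985 and 3085 CPM as lowest, median and highest in HFD, against 1529, 3452 and 4856 CPM in CD. The genes with no KRAB match summed to 3028, 4409 and 5108 CPM in HFD, against 3838, 4837 and 5745 CPM in CD. The CD libraries thus spanned from the lowest KRAB sum of all 12, in CD 1, to the highest, in CD 4. Levels are relative to all gene counts of a library, and in a pool of cells fewer expressing cells and less RNA per cell cannot be told apart.

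**Figure D1:**
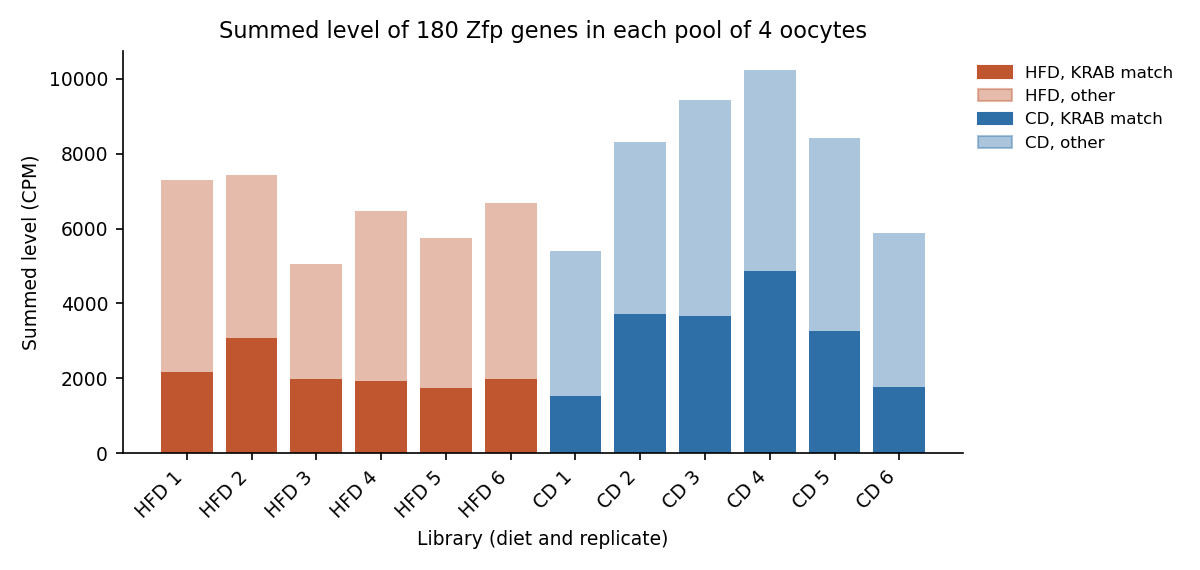
Summed level in CPM (y axis, from 0) of the 180 Zfp genes in each of the 12 libraries (x axis), with genes that have a KRAB match in the dark lower part and the others in the light upper part. CD 2, CD 3, CD 4 and CD 5, between 8309 and 10240.2 CPM, stand above all 6 HFD libraries, between 5044 and 7437 CPM, while CD 1 and CD 6 do not.

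For the effect of the diet on single genes, 179 of the 180 genes passed the filter on low counts and were tested with edgeR's quasi-likelihood test, adjusted over all 9935 genes that passed. No Zfp gene reached an adjusted p of 0.05, and neither did any other gene (background 0%); the smallest adjusted p of a Zfp gene was 0.0913. At an unadjusted p of 0.05, 5 Zfp genes were higher in HFD, 2.79% of those tested against 13.4% of all genes, and 16 were lower, 8.94% against 8.89% of all genes. The share of lower genes was thus that of the background, and the share of higher genes was below it. DESeq2 called 8 Zfp genes, all lower in HFD and none higher, where it called 3.3% of all genes lower and 5.79% higher; it gave an adjusted p to 156 of the 179. These were Zfp735, Zfp60, Zfp964, Zfp942, Zfp616, Zfp750, Zfp235 and Zfp74, and limma-voom called 0, against 0.352% of all genes. The diets did not overlap in 1 gene higher in HFD (1.17% of all genes) and in 2 genes lower in HFD (1.28% of all genes).

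Most of the genes had small differences with a negative sign. The median log2 fold change, HFD minus CD, was -0.32 over the Zfp genes and 0.04 over all genes tested, and -0.21 over the Zfp genes without CD 4. It was above 0 for 58 Zfp genes and below 0 for 121, or 67.6%, against 48.2% of all genes. The middle of the distribution ran from -0.72 at the lower quartile to 0.19 at the upper quartile, against -0.47 to 0.64 for all genes. Among the 136 Zfp genes that share under 10% of their 50-base stretches with another gene, the median was -0.39. With HFD 1, HFD 2, CD 2 and CD 4 left out the median was -0.21, with 15 genes lower (background 9.05%) and 10 higher (background 15.2%) at an unadjusted p of 0.05.

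**Figure D2:**
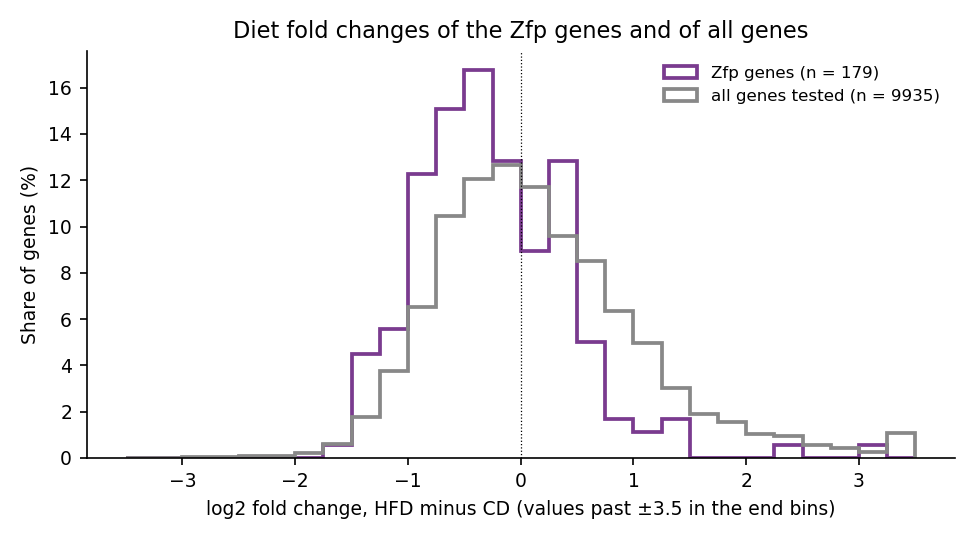
Share of genes (y axis, %) in each bin of the log2 fold change, HFD minus CD (x axis), for 179 Zfp genes and for all 9935 genes tested. The Zfp genes lie to the left of all genes, with medians of -0.32 and 0.04, and few of them reach the long right side that all genes show.

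The median log2 fold change of KRAB genes was -0.45, with 28 above 0 and 69 below, and that of genes with no KRAB match was -0.22, with 29 above and 52 below. This order depended on a few pools: without CD 4 the medians were -0.21 for both sets, without CD 2 that of the KRAB genes was -0.28, without HFD 2 that of the others was -0.15, and without HFD 1, HFD 2, CD 2 and CD 4 they were -0.16 for the KRAB genes and -0.25 for the others. The related Zbtb genes, zinc-finger proteins with a BTB domain in place of KRAB, had a median of -0.61 over the 23 of 35 that met the same level limit, with 1 above 0 and 22 below. The Zscan and Zkscan genes, which carry a SCAN domain, had a median of -0.32 over 12 of 21, with 3 above and 9 below, and of -0.13 without CD 4. Zbtb genes kept a median between -0.71 and -0.33 over the alternatives, and no difference between these groups was tested.

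Transcript length moved with the diet difference in all genes, and the Zfp genes followed it with an offset. In the shortest of 4 length classes of the Zfp genes, up to 2778.5 bases of exon, the median log2 fold change was 0.08, against 0.36 for all genes of those lengths. In the next 3 classes it was -0.41, -0.47 and -0.40, against -0.14, -0.20 and -0.24 for all genes of the same lengths. The Zfp genes had a median exonic length of 3723 bases and all genes tested one of 3332 bases. With each library's trend on length removed, the median of the Zfp genes was -0.14, against -0.01 for all genes. The KRAB genes and the others then had medians of -0.16 and -0.14. This correction was fitted with limma on log2 levels and not with edgeR, so these medians differ from the edgeR ones in method too. Limma-voom with no length correction gave medians of -0.27 for the Zfp genes, -0.33 for KRAB genes and -0.22 for the others. It also weighted the libraries by quality, which the length-corrected fit did not, so these medians too differ in method. How much of the change came from length was not tested.

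**Figure D3:**
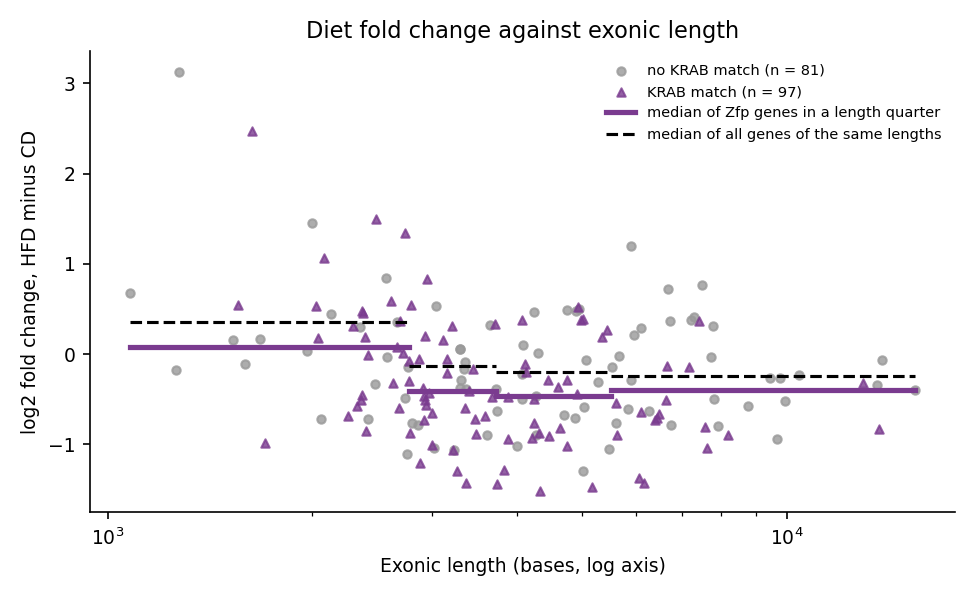
Log2 fold change, HFD minus CD (y axis), of the Zfp genes against their exonic length in bases (x axis, log scale), with triangles for genes with a KRAB match and circles for the others. Bars give the median of each of 4 length classes of the Zfp genes (0.08, -0.41, -0.47 and -0.40) and dashed lines that of all genes of the same lengths, which is higher in each of the 4 classes.

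Among the genes lower in HFD, Zfp735 had the smallest p. This KRAB gene (ENSMUSG00000060630.7, chr11:73688778-73713798, mm10) had a lowest, median and highest level of 64.6, 129.9 and 180.3 CPM in HFD and of 108, 384 and 539 CPM in CD. CD 2, CD 3, CD 4 and CD 5 were above every HFD library, and CD 1 and CD 6 lay among them. The mean was 123 ± 41.8 CPM in HFD and 332 ± 170.4 CPM in CD (SD, n = 6 each), with a log2 fold change of -1.43 ± 0.39 (SE) and an adjusted p of 0.0930 in edgeR. DESeq2 gave it an adjusted p of 0.0167, and over all alternatives its adjusted p ranged from 0.0167 to 0.335.

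Zfp60, a KRAB gene on chromosome 7 (chr7:27731389-27753702), was 1 of the pair whose diets did not overlap. Its levels were 54.9, 99.0 and 144 CPM as lowest, median and highest in HFD and 150.05, 172 and 636 CPM in CD. The highest CD library, CD 3, stood far above the other 5, which reached at most 199.7 CPM. The log2 fold change was -1.37 ± 0.40 (edgeR, adjusted p = 0.0961), and it was -0.84 without CD 3. The promoters of Zfp735 and Zfp60 are shown because these 2 genes had the smallest p among those lower in HFD. Each is the RefSeq stretch from 250 bases before to 50 bases after the start in GRCm38.p6, read 5′ to 3′, with CG dinucleotides in capitals: Zfp735 at chr11:73688528-73688827 (plus strand) and Zfp60 at chr7:27731159-27731458 (plus strand).
Zfp735: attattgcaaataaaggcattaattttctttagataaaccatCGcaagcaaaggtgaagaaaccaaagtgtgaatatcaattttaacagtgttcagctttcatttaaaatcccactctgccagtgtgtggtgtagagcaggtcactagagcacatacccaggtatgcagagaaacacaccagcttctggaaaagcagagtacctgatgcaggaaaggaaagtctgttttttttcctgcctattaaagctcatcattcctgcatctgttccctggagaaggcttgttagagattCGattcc
Zfp60: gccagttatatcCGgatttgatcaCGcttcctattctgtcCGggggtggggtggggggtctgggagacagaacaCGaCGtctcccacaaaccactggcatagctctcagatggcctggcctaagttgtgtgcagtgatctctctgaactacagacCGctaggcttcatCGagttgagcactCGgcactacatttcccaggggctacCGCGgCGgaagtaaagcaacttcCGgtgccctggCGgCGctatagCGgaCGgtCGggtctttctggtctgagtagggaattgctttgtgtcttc
The Zfp735 stretch held 2 CG dinucleotides and the Zfp60 stretch 17, against a median of 14 over the 146 Zfp genes with a promoter in the table and of 21 over the 7536 tested genes with one.

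Zfp964, the other gene with no overlap, is a KRAB gene on chromosome 8 (chr8:69654479-69666982) with low levels. It had 0.969, 3.87 and 5.87 CPM as lowest, median and highest in HFD, against 6.07, 11.4 and 15.8 CPM in CD. The log2 fold change was -1.52 ± 0.45 (edgeR, adjusted p = 0.0968).

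The other genes of this group overlapped between diets, and in all of them the 6 HFD libraries lay below the CD mean. Zfp616, a gene with 18 finger matches close to Zfp735 on chromosome 11, averaged 121 ± 27.3 CPM in HFD and 297 ± 237 CPM in CD (SD, n = 6 each). Its highest CD library was CD 3, at 760.4 CPM, and without CD 3 its log2 fold change was -0.78. Zfp750, whose human counterpart drives epidermal differentiation, averaged 48.8 ± 19.9 CPM in HFD and 102 ± 43.1 CPM in CD. Zfp942, a KRAB gene in a run of Zfp genes on chromosome 17, averaged 43.7 ± 17.9 CPM in HFD and 107 ± 54.9 CPM in CD. The spread between CD pools was larger than that between HFD pools in all 3. Zfp235 averaged 10.6 ± 5.90 CPM in HFD and 28.4 ± 16.4 CPM in CD. Zfp74 averaged 16.8 ± 2.83 CPM in HFD and 31.4 ± 11.2 CPM in CD. Their adjusted p in edgeR lay between 0.103 and 0.118, with log2 fold changes of -1.30 ± 0.40 for Zfp616, -1.06 ± 0.33 for Zfp750, -1.29 ± 0.39 for Zfp942, -1.43 ± 0.46 for Zfp235 and -0.90 ± 0.30 for Zfp74. DESeq2 called all 5, as it did Zfp60 and Zfp964, and the adjusted p of the 8 genes it called ran from 0.0152 to 0.414 over all alternatives.

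Zfp212 and Zfp821, neither with a KRAB match, completed the 10 genes with the smallest p on this side. Zfp212 averaged 53.2 ± 14.4 CPM in HFD and 90.0 ± 22.8 CPM in CD, and its log2 fold change was -0.76 ± 0.27 (edgeR, adjusted p = 0.132). Zfp821 averaged 20.7 ± 4.28 CPM in HFD and 34.0 ± 8.12 CPM in CD, with a difference of -0.72 ± 0.28 on the log2 scale (edgeR, adjusted p = 0.157). The highest CD library of both was CD 1.

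**Figure D4:**
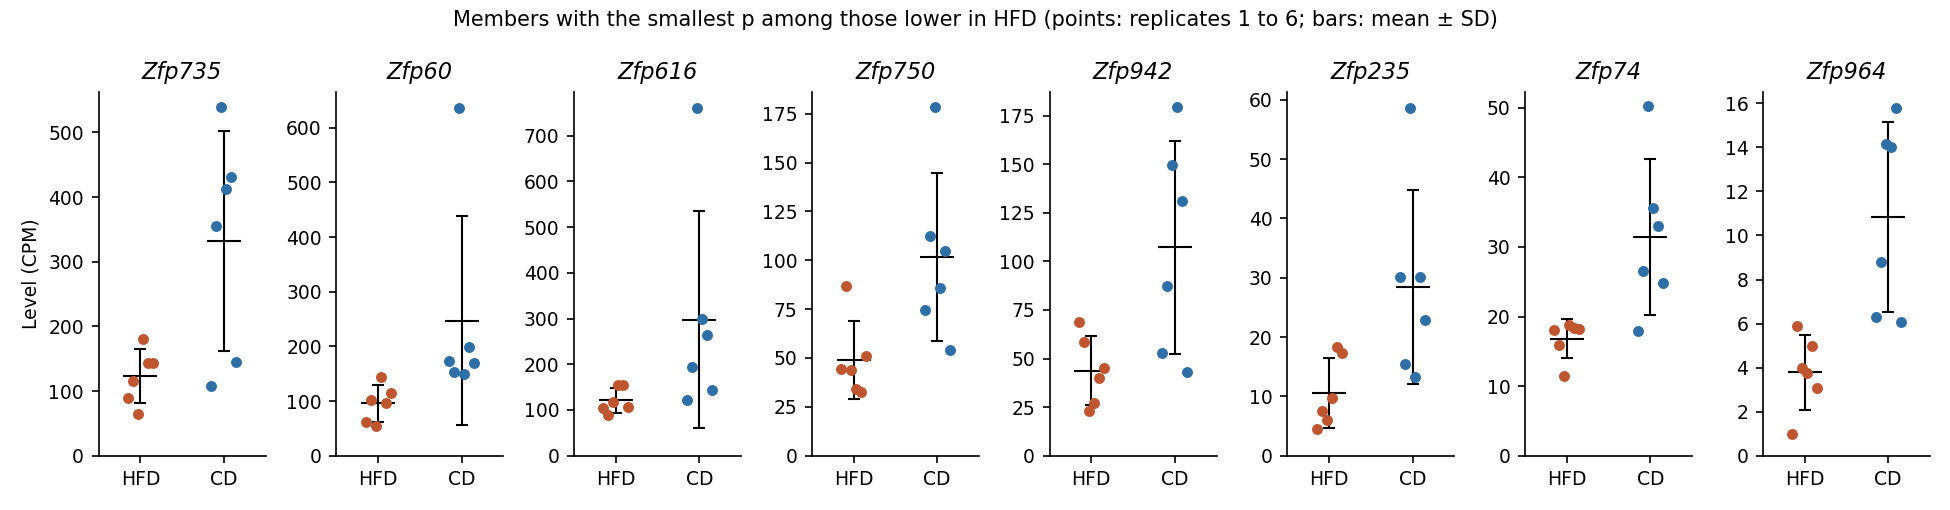
Level in CPM (y axes, from 0, each panel on its own scale) of 8 Zfp genes in the 6 HFD and the 6 CD libraries, with 1 point per library, the mean as a bar and the SD as whiskers. All HFD points lie below the CD mean in each panel, and CD 3 is the single high point of Zfp60, Zfp616 and Zfp235.

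Fewer Zfp genes were higher in HFD, and several of them rest on shared reads or on HFD 3. Zfp935 had 2.24, 3.73 and 5.5 CPM as lowest, median and highest in HFD, against 0.124, 0.692 and 1.13 CPM in CD, and its log2 fold change was 2.47 ± 0.54 (edgeR, adjusted p = 0.0913). Every HFD library was above every CD library. With a mean of 2.17 CPM this gene met the level limit only through HFD, so a difference in this direction was favoured by the choice of genes, and it supports nothing. DESeq2 gave no adjusted p to it or to Zfp414. All of its 50-base stretches also occur in other genes, so its counts cannot be assigned to it with certainty. For Zfp414 the log2 fold change was 3.13 ± 1.32 (edgeR, adjusted p = 0.188) and 0.19 without HFD 3. It stood at 51.1 CPM in HFD 3 and at no more than 2.12 CPM in the other 5 HFD libraries, against 0.0948 to 2.79 CPM in CD. It too met the level limit only through HFD, and there only through HFD 3, with a mean of 1.16 CPM over the other 11 libraries. Zfp345, a KRAB gene, had 4.40, 20.4 and 99.96 CPM as lowest, median and highest in HFD, with the highest in HFD 3, against 6.58, 10.3 and 20.8 CPM in CD. Its log2 fold change was 1.34 ± 0.59 (edgeR, adjusted p = 0.199) and 0.52 without HFD 3. HFD 3 also held the highest summed level of the oviduct epithelium markers, given above, whose part in these values was not tested.

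Zfp560 was also higher on average in HFD, although the diets overlapped. This KRAB gene on chromosome 9 (chr9:20345136-20385177) shares no 50-base stretch with another gene, and it averaged 67.0 ± 13.9 CPM in HFD and 46.7 ± 7.22 CPM in CD (SD, n = 6 each). All 6 HFD libraries were above the CD mean, and the log2 fold change of 0.52 ± 0.24 (edgeR, adjusted p = 0.216) lay between 0.44 and 0.58 with single libraries left out. Zfp672 averaged 7.25 ± 4.27 CPM in HFD and 3.16 ± 1.96 CPM in CD. Zfp277, known for repressing the Ink4a/Arf locus, averaged 109 ± 66.8 CPM in HFD and 60.9 ± 19.3 CPM in CD. The HFD libraries of Zfp277 ranged from 31.8 CPM, below every CD library, to 209 CPM, and its log2 fold change was 0.84, against 0.54 without HFD 3. Zfp931, Zfp511, Zfp865 and Zfp507 made up the rest, with log2 fold changes of 1.06 ± 0.53, 0.68 ± 0.36, 0.76 ± 0.42 and 0.73 ± 0.43. Without HFD 3 that of Zfp865 was 0.39. The smallest adjusted p of the 6 genes last named was 0.189 in edgeR.

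By known role, none of the 4 groups of Zfp genes held a call. Of the genes linked to RNA or ribosomes, 7 of the 10 listed were members, with Zfp706, described above, among them. Their median log2 fold change was -0.08, with 3 above 0 and 4 below. Over the alternatives this median lay between -0.21 and 0.21, the highest without CD 1, so it has no stable sign. Zfp207, a microtubule and spindle checkpoint protein that also takes part in splicing, averaged 184 ± 35.1 CPM in HFD and 294 ± 111 CPM in CD (edgeR, adjusted p = 0.181). All 6 HFD libraries were below the CD mean, and its highest levels were in CD 2, CD 4 and CD 5. Zfp598, the ubiquitin ligase that marks collided ribosomes, averaged 16.6 ± 6.81 CPM in HFD and 17.6 ± 8.94 CPM in CD. Zfp830, a splicing factor also known to guard the oocyte genome, averaged 25.5 ± 5.66 CPM in HFD and 27.4 ± 8.80 CPM in CD. The diets of both lay within the spread between pools. Zfp106, an RNA-binding protein of motor neurons and muscle, averaged 54.1 ± 18.3 CPM in HFD and 65.2 ± 22.1 CPM in CD. Zfp593, a ribosome assembly factor, and Zfp326, an elongation and splicing factor, were at low levels. Zfp593 averaged 5.73 ± 8.56 CPM in HFD and 2.10 ± 2.41 CPM in CD, and Zfp326 averaged 3.36 ± 3.37 CPM in HFD and 2.62 ± 1.08 CPM in CD.

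Of the genes listed for pluripotency and the early embryo, 6 of the 10 listed were members, with a median of -0.09, 2 above 0 and 4 below. This median lay between -0.27 without CD 4 and 0.13 without CD 5. Zfp296, a partner of reprogramming factors, averaged 91.4 ± 34.4 CPM in HFD and 82.1 ± 21.1 CPM in CD. Zfp148, also called ZBP-89, averaged 65.7 ± 19.4 CPM in HFD and 94.5 ± 33.9 CPM in CD. Zfp541, needed in spermatocytes, averaged 11.8 ± 4.07 CPM in HFD and 19.3 ± 12.7 CPM in CD, and all 6 HFD libraries of Zfp148 and Zfp541 were below the CD mean. Zfp281, which helps embryonic cells leave the naive state, averaged 12.6 ± 11.4 CPM in HFD and 8.92 ± 7.55 CPM in CD. Zfp143, a factor of promoters and chromatin loops, averaged 9.12 ± 5.92 CPM in HFD and 10.2 ± 9.44 CPM in CD. The pools differed more than the diets in both. For Zfp281 the 4 highest libraries were HFD 1, HFD 2, CD 2 and CD 4, those low in Mos.

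Of the genes known to silence retroelements or imprinted loci, 8 of the 10 listed were members, and their median log2 fold change was -0.45, with 0 above 0 and 8 below. Over all Zfp genes with a KRAB match the median was also -0.45, with 28 above 0 and 69 below. The count below 0 was between 6 and 8 over the alternatives, and the smallest adjusted p in edgeR was 0.217. Zfp961 averaged 34.3 ± 26.2 CPM in HFD and 68.8 ± 31.2 CPM in CD, with HFD 5, at 77.1 CPM, above the CD mean. Zfp445, which protects imprints in mouse and human embryos, averaged 6.89 ± 3.57 CPM in HFD and 11.4 ± 4.87 CPM in CD. Zfp809, which starts the silencing of murine leukemia virus-like elements, averaged 4.23 ± 2.58 CPM in HFD and 6.34 ± 2.91 CPM in CD. In each of these 3 genes, 5 of 6 HFD libraries were below the CD mean. Zfp568, which represses a placental transcript of Igf2, averaged 15.3 ± 6.61 CPM in HFD and 16.8 ± 5.31 CPM in CD. Zfp819, also on the pluripotency list, averaged 4.0 ± 2.36 CPM in HFD and 4.03 ± 2.37 CPM in CD, and Zfp932 averaged 61.3 ± 40.6 CPM in HFD and 64.8 ± 64.5 CPM in CD. Zfp708 averaged 7.81 ± 2.56 CPM in HFD and 9.72 ± 5.18 CPM in CD, and Zfp600 averaged 2.30 ± 1.40 CPM in HFD and 4.24 ± 2.39 CPM in CD. Zfp708 and Zfp600 share 100% and 85.0% of their 50-base stretches with other genes, so their counts are uncertain.

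Of the genes tied to fat or energy metabolism in other tissues, 5 of the 10 listed were members, with a median of -0.07, 2 above 0 and 3 below. It lay between -0.37 in the libraries with odd counts only and 0.08 without HFD 3. Zfp423, a determinant of preadipocytes, averaged 15.1 ± 4.99 CPM in HFD and 15.8 ± 3.55 CPM in CD. Zfp692, a repressor of gluconeogenic genes, averaged 33.8 ± 13.8 CPM in HFD and 33.0 ± 7.15 CPM in CD. Both means differed by less than the SD of either diet. Zfp407, which acts with PPAR gamma in adipocytes, averaged 14.6 ± 8.04 CPM in HFD and 25.4 ± 19.9 CPM in CD, with the lowest levels in CD 2 and CD 4. Zfp516, a brown fat activator, averaged 2.52 ± 0.632 CPM in HFD and 3.55 ± 2.06 CPM in CD. Zfp746, also called PARIS, a repressor of PGC-1 alpha, averaged 2.55 ± 1.82 CPM in HFD and 2.05 ± 1.75 CPM in CD. The smallest adjusted p of the 5 in edgeR was 0.444.

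The partners through which KRAB proteins act were present in both diets. Of 32 corepressor genes, 30 were tested, with a median log2 fold change of -0.09, 13 above 0 and 17 below, and a median between -0.17 and 0.0025 over the alternatives. EdgeR, DESeq2 and limma-voom called 0 of them, and 2 were higher and 0 lower at an unadjusted p of 0.05, or 6.67% and 0%, against 13.4% and 8.89% of all genes. These shares were thus below the background. The 2 were Mphosph8, a subunit of the HUSH silencing complex, with 1303 ± 424 CPM in HFD and 722 ± 247 CPM in CD, and the HP1 gene Cbx1, with 223 ± 57.3 CPM in HFD and 137 ± 38.4 CPM in CD. Their log2 fold changes were 0.85 ± 0.31 and 0.70 ± 0.27 (edgeR, adjusted p = 0.140 and 0.147), and all 6 HFD libraries of Cbx1 were above the CD mean. Smarcad1, a chromatin remodeller bound by KAP1, differed by -0.79 ± 0.37 on the log2 scale (edgeR, adjusted p = 0.227) and by -0.30 without CD 3. Trim28 averaged 54.3 ± 33.4 CPM in HFD and 78.6 ± 61.3 CPM in CD, and its log2 fold change was -0.53 ± 0.58 (edgeR, adjusted p = 0.622), with -0.12 without CD 1, -0.35 without HFD 2 and -0.82 without HFD 5. Its level followed the pool more than the diet. It was 19.7 CPM in HFD 1, 17.1 in HFD 2, 18.7 in CD 2 and 18.8 in CD 4, against 43.1 to 100.4 CPM in HFD 3 to HFD 6 and 62.4 to 179.6 CPM in CD 1, CD 3, CD 5 and CD 6. Setdb1 was at 21.3, 13.2, 13.3 and 15.03 CPM in the same 4 libraries. It stood at 26.8 to 56.3 CPM in HFD 3 to HFD 6 and at 30.7 to 64.4 CPM in CD 1, CD 3, CD 5 and CD 6. Not every corepressor gene was low there. Mbd3 was at 38.3, 36.7, 41.5 and 40.1 CPM in the same 4 libraries. Its levels were 8.80 to 18.2 CPM in HFD 3 to HFD 6 and 8.11 to 21.9 CPM in CD 1, CD 3, CD 5 and CD 6.

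Many Zfp genes lie in runs along the chromosomes. With neighbours at most 500 kb apart, 74 of them formed 14 runs of at least 3, and chromosome 7 held 42 members, chromosome 17 held 27 and chromosome 8 held 17. The longest run, on chromosome 17 (chr17:21008903-22456689), held 12 genes, 11 of them with a KRAB match. Its median log2 fold change was -0.47, with 1 gene above 0 and 11 below. It was -0.16 without CD 4 and -0.74 without HFD 2. The run of 9 genes on chromosome 7 (chr7:29768552-30107622) had a median of -0.17, with 2 above 0 and 7 below. The run of 8 genes at chr17:32879219-33631779 had a median of -0.12, with 4 on each side. The chromosome 7 run that holds Zfp235 was as mixed, with a median of 0.01, 4 above and 3 below. In 13 of the 14 runs the members lay on both sides of 0, the exception being Zfp936, Zfp715 and Zfp819 on chromosome 7, all below 0.

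Levels varied widely between pools of the same diet. Over the Zfp genes with a count in every library, the highest library exceeded the lowest by a median of 6.67-fold. CD 4 was the highest library for 40 of the 180 genes, or 22.2%, against 6.79% of all genes tested. CD 3 was highest for 30 Zfp genes, or 16.7%, against 20.2% of all genes, and HFD 3 for 23, or 12.8%, against 22.6%. When each tested gene was described by its 4 highest libraries, the most frequent set was CD 2, CD 3, CD 4 and CD 5, for 12 Zfp genes (6.70%, against 2.74% of all genes). Next came CD 2, CD 4, CD 5 and HFD 2, for 10 Zfp genes (5.59%, against 1.24%), and CD 2, CD 4, HFD 2 and HFD 3, for 9 (5.03%, against 2.34%). All 9 genes of the last set have a KRAB match. The set of the 4 libraries low in Mos was the highest for 8 Zfp genes (4.47%, against 3.63%) and the lowest for 5 (2.79%, against 6.97%).

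Across the 179 tested genes, the log2 level of each gene relative to its mean correlated between CD 2 and CD 4 with r = 0.60, between HFD 2 and CD 2 with r = 0.59 and between HFD 2 and CD 4 with r = 0.52. Over all 9935 genes the same pairs had r = 0.59, 0.54 and 0.50. HFD 1, also low in Mos, correlated less with them over the Zfp genes, with r = 0.34 for HFD 2, 0.12 for CD 2 and 0.25 for CD 4. Genes are not independent replicates, and the points of a pair share the libraries' depth and normalization, so these values are a description.

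The genes with the largest spread among the CD pools were Zfp788, Zfp933, Zfp709, Zfp575 and Zfp963, all but Zfp575 with a KRAB match. The promoters of 4 of them are shown because these genes had their highest levels within CD in CD 2 and CD 4. The stretches of Zfp788 at chr7:41633281-41633580 (plus strand), Zfp933 at chr4:147848369-147848668 (minus strand), Zfp709 at chr8:71881818-71882117 (plus strand) and Zfp963 at chr8:69749913-69750212 (minus strand) are printed as above, with CG dinucleotides in capitals.
Zfp788: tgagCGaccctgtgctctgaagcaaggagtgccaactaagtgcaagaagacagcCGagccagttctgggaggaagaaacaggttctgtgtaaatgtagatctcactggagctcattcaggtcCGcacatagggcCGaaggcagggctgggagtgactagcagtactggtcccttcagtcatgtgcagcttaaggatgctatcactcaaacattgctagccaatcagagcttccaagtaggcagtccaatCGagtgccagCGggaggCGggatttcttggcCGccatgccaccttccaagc
Zfp933: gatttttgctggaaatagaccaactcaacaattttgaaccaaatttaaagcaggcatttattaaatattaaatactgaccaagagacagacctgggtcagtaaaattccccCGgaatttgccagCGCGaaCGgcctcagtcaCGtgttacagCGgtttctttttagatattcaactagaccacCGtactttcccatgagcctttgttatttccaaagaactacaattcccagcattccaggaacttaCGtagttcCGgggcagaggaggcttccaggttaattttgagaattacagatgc
Zfp709: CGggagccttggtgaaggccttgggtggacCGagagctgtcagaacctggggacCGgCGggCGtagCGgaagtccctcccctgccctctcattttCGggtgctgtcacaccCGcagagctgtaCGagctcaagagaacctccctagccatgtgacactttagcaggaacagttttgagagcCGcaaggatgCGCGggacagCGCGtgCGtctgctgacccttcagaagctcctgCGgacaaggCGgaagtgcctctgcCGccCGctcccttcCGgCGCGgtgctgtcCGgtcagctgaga
Zfp963: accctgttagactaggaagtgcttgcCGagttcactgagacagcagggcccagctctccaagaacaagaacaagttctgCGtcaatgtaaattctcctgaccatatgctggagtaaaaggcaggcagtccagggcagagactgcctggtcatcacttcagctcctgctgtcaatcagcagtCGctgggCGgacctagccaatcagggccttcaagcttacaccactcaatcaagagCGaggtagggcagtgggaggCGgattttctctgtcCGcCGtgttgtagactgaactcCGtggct
They held 8, 9, 23 and 9 CG dinucleotides, against a median of 10 over the 87 KRAB genes with a promoter and of 21 over the 58 others. The letters CCAAT, searched on both strands, occurred in the stretches of Zfp788 and Zfp963 and not in those of Zfp933 and Zfp709. They occurred in 49.3% of the promoters of Zfp genes and in 39.8% of those of all tested genes. GGGCGG occurred in the stretches of Zfp709 and Zfp963 and not in those of Zfp788 and Zfp933, in 48.6% of Zfp promoters and in 63.4% of those of all tested genes.

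Zfp788 had 1.94, 8.45, 7.45, 1.41, 2.04 and 0.440 CPM in HFD 1 to HFD 6, and 0, 25.8, 0, 26.1, 1.36 and 0 CPM in CD 1 to CD 6. Within CD it was high in CD 2 and CD 4 and at or near 0 in the other 4 libraries, while in HFD no library was at 0 and the highest was HFD 2. Zfp709 had 13.9, 33.0, 12.3, 5.18, 0.306 and 2.86 CPM in HFD 1 to HFD 6, and 0.721, 39.7, 0.943, 65.1, 11.1 and 1.42 CPM in CD 1 to CD 6. Zfp933 had 13.2, 26.4, 30.5, 11.5, 4.18 and 3.08 CPM in HFD 1 to HFD 6, and 0, 42.1, 4.62, 67.8, 10.03 and 0.948 CPM in CD 1 to CD 6. In both, CD 2 and CD 4 were the 2 highest of all 12 libraries. Zfp963 had 3.88, 10.5, 13.2, 3.30, 1.94 and 1.76 CPM in HFD 1 to HFD 6, and 0.180, 10.9, 0.471, 13.04, 3.03 and 0.379 CPM in CD 1 to CD 6. Here HFD 3 was as high as CD 4, and 40.4% of the 50-base stretches are shared with other genes. Zfp575 had 1.54, 2.91 and 4.37 CPM as lowest, median and highest in HFD, against 0, 3.49 and 12.2 CPM in CD, with the highest in CD 4.

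Some more abundant KRAB genes were high in the same pools. Zfp951 and Zfp930, named after their values were seen, and Zfp932, from the retroelement list, were highest in CD 4. Zfp951 had 155, 193, 159, 26.2, 11.2 and 19.1 CPM in HFD 1 to HFD 6, and 10.2, 173, 6.88, 255, 35.2 and 10.4 CPM in CD 1 to CD 6. Its levels in HFD 1, HFD 2, HFD 3, CD 2 and CD 4 were thus set apart from those in the other 7 libraries. Zfp930 had 244 CPM in CD 2 and 299.6 CPM in CD 4, with the other 4 CD libraries from 11.6 to 41.6 CPM, and between 23.1 and 157.7 CPM in HFD. Zfp932 had 127 and 163.7 CPM in CD 2 and CD 4, with the other 4 CD libraries from 10.1 to 46.7 CPM, and between 21.3 and 116 CPM in HFD, and 45.2% of its 50-base stretches are shared with other genes. Trim28, the corepressor gene, was at its lowest in 4 of these libraries, as given above, while in HFD 3 it stood at 43.1 CPM. Whether the state of the oocytes in a pool bears on these levels was not tested.

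**Figure D5:**
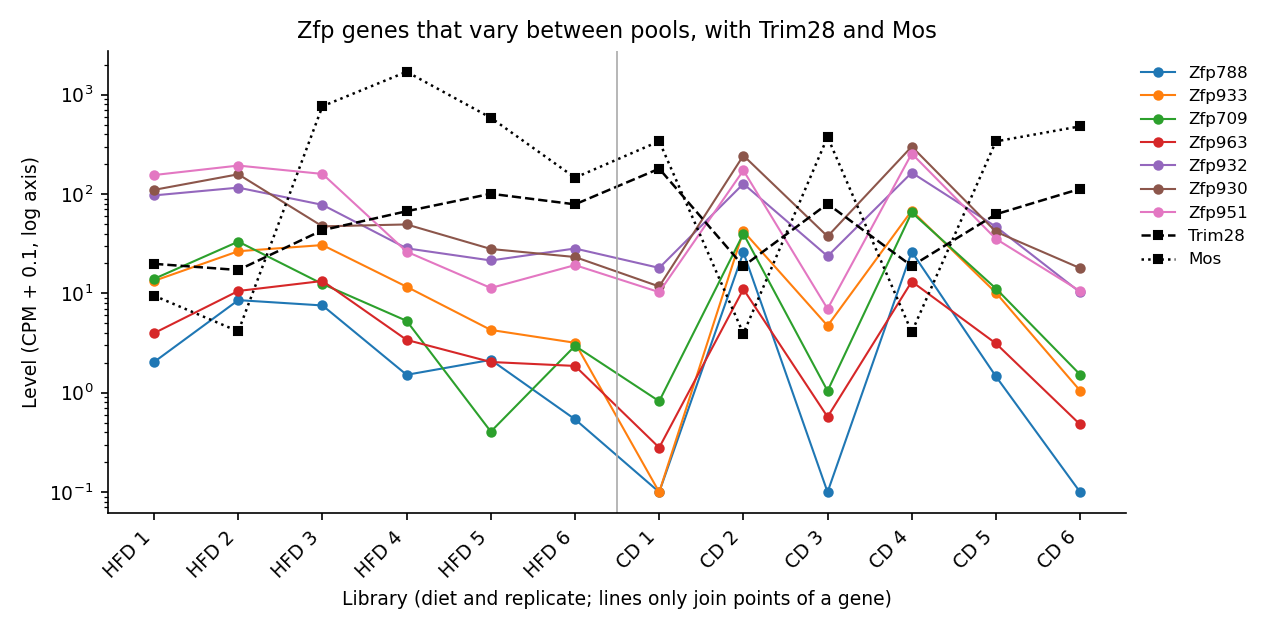
Level in CPM plus 0.1 (y axis, log scale) of 7 Zfp genes with a KRAB match, and of Trim28 and Mos in black, in each of the 12 libraries (x axis); lines only join the points of a gene. Within CD the Zfp genes are highest in CD 2 and CD 4, where Trim28 is below 19 CPM and Mos below 4 CPM, and within HFD they are highest in HFD 2 or HFD 3, with Mos at 764 CPM in HFD 3.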

How the data were processed

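RNA of 12 oocyte pools, 6 HFD and 6 CD, was amplified with the SMART-Seq v4 kit and made into libraries with Nextera XT, which does not mark strand, per the labels' protocols. The authors deposited whole-number read counts per gene symbol. Per the submitters' processing notes, the tools were STAR, HTSeq 1.0.0 and DESeq2 1.0.19 with build mm10, and no annotation or counting option is stated. Tallies of unassigned reads (66.5% to 72.9% of reads in HFD, 62.3% to 66.6% in CD) were kept out. Among them, reads without a unique alignment made up 26.8% to 35.7% in HFD and 18.6% to 26.5% in CD. The diets thus did not overlap in this share, and its bearing on the Zfp counts was not tested.

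HFD was compared with CD by the robust quasi-likelihood test of edgeR 4.0.16 (R 4.3.3) with TMM scaling, the default low-count filter and Benjamini-Hochberg adjustment over all 9935 genes tested, at 0.05. Log2 fold changes are HFD minus CD, and their SE derive from the F statistic. Levels are TMM-scaled CPM as mean ± SD; the rule used CPM of total gene counts. The fit was checked on simulated counts with differences placed only in genes of higher level. That check therefore does not show what could be detected among the weakly expressed Zfp genes. Reads carry no molecular identifiers, so the number of reads limits counting error only. DESeq2 1.42.0, limma 3.58.1, other scalings, filters, a length correction, a replicate block and left-out libraries were alternatives.

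Positions, exonic lengths, finger and KRAB matches (a pattern within the first 250 residues) and shared 50-base stretches came from GENCODE for GRCm38, matched for all 180 genes, 1 through an older symbol; promoters came from RefSeq. Of the genes, 19 share at least 30% of such stretches, 47 overlap exons of an opposite-strand gene and 16 those of a same-strand gene, so their counts are less certain.

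The members and lists were chosen with earlier results of these data known. Genes are named by a rule: the 8 highest per kilobase, the 10 smallest p in each direction, the members of 4 role lists, the 5 with the largest SD of log2 CPM over CD, the 3 on either side of the level limit, and corepressor genes. Zfp951, Zfp930 and the genes of the runs on chromosomes are named outside it, after their values were seen.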

Additional observations from a re-analysis of the deposited data

Results flagged for a closer look

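Among 118 groups of 6 libraries, from the named Zfp genes and the summed level, 12 held a library far from the other 5 of its diet by Dixon's criterion. For normally distributed values chance flags about 1 group in 20. The criterion was applied to CPM without a log scale, and some genes were named for their p or spread. That rate may therefore not apply here, and no excess over chance is read from the 12. HFD 3 was the high library for Zfp414 (51.1 CPM, against at most 2.12 in the other HFD libraries), Zfp345 (99.96 CPM, against at most 27.7), Zfp593 (23.1 CPM, against at most 3.77) and Zfp809 (9.04 CPM, against at most 4.04). CD 3 was the high library for Zfp60 (636 CPM, against at most 199.7 in the other CD libraries), Zfp616 (760.4 CPM, against at most 299) and Zfp235 (58.6 CPM, against at most 30.2). The others were single cases: Zfp750 at 86.8 CPM in HFD 2, Zfp568 at 28.5 CPM in HFD 5, Zfp598 at 34.9 CPM in CD 1, Zfp825 at 5.46 CPM in CD 2 and Zfp746 at 5.33 CPM in CD 5. All 12 were high values. Without CD 3 the log2 fold changes of Zfp60 and Zfp616 were -0.84 and -0.78.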

How the results depend on the processing

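No Zfp gene was called under limma-voom, the length correction or edgeR's other scalings, filter, library sets and block. The same held with any single library left out. The set of libraries with odd counts only left HFD 3 and HFD 5 against all 6 CD libraries. There edgeR called 4.03% of all genes tested, while limma-voom on all 12 libraries called 0.352%. The other settings named here called no gene at all. DESeq2 called 8 Zfp genes, all lower in HFD. Of 549 values of 24 named genes over 23 alternatives, each with an adjusted p, 539 kept their direction and side of the threshold, and the 8 genes that DESeq2 called moved past it. DESeq2 gave no adjusted p to 23 of the 179 Zfp genes tested, Zfp935 and Zfp414 among them, so these have no side of the threshold there. The other 2 turned direction: Zfp507 to -0.24 in libraries with odd counts only and Zfp511 to -0.14 with the length trend removed. The cause was not tested. This tally does not weigh size: Zfp414, at 3.13 in the main fit and 0.19 without HFD 3, counts as kept. As the main fit and most alternatives called no gene, the side of the threshold had little room to change. The median log2 fold change of the Zfp genes lay between -0.38 and -0.21 with each library left out, and was -0.42 under total counts alone, which moved the median of all genes to -0.07. The difference of the summed level lay between -2012 and -1043 CPM with each library left out. Limits of 1 and 5 CPM gave 212 and 128 genes, of which 200 and 128 were tested, with medians of -0.29 and -0.38 over the tested genes. The replicate numbers are not stated to pair the samples. Same-numbered libraries correlated between -0.45 and 0.55, which cannot show whether they were paired. With the replicate block the median was -0.24 and no Zfp gene was called. For the corepressor genes no alternative made a call. How small a difference could be detected at levels near the limit was not tested.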
